A study of Mus musculus with 3 samples.

Results

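Semaphorins of class 3 are secreted guidance proteins, and 9 genes of that system were followed in aortic valve structures of newborn mice: the ligands Sema3a, Sema3c, Sema3d and Sema3e, the plexin receptors Plxna2, Plxna4 and Plxnd1, and the neuropilin co-receptors Nrp1 and Nrp2. They were taken by name from 36167 features. All 9 passed the filter on low counts, as did 13724 genes in all. The study had 1 group with 3 replicates, each a pool of 22 to 24 aortic roots from pups at postnatal day 1. Every pool carried the strain label B6.Cg-Scx<tm1.1(EGFP)Skom, with the stock number RBRC11098, the name of a line with an EGFP allele of the scleraxis gene. The labels do not give the zygosity of the pups, the pups of a pool cannot be told apart, and no other genotype was analysed here. The comparisons below are therefore between classes of nuclei within the pools. RNA was read from nuclei of flash-frozen tissue, so a level here is a level of nuclear RNA.

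In this system a semaphorin binds a neuropilin on the receiving cell, and a plexin paired with that neuropilin carries the signal to the cytoskeleton. Sema3e is the usual exception, since it can bind Plxnd1 without a neuropilin. Neuropilins also bind vascular endothelial growth factors, Nrp1 mainly beside Kdr on blood vessels and Nrp2 mainly beside Flt4 on lymphatic vessels. In the developing heart, Sema3c and its plexin and neuropilin receptors are known for guiding cardiac neural crest cells into the outflow tract, from which the aortic valve and root take shape.

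The deposited matrices held 21140 nuclei with 25341316 UMIs in pool 2, 21254247 in pool 3 and 49918251 in pool 1. The rule kept nuclei with at least 1000 UMIs and at most 5% mitochondrial UMIs, 14073 in all, and 13182 remained after 891 likely doublets were removed. Barcodes shared by pairs of pools numbered 44 to 99. Nuclei were grouped into 28 clusters without using the 9 genes or their pathway, and clusters were named "X-like" from marker lists. Of the 12 named classes, 10 had at least 20 nuclei in every pool and entered the tests: cardiomyocyte-like (3064 nuclei), smooth muscle-like (2955), endothelial-like (2740, endocardial nuclei included), valve interstitial-like (1440), fibroblast-like (1103), mesothelial-like (371), macrophage-like (268), pericyte-like (214), lymphatic endothelial-like (117) and erythroid-like (73). Melanocyte-like (68) and adipocyte-like (55) nuclei were too few, and 714 nuclei stayed unnamed. Smooth muscle markers summed to 2929 CPM (counts scaled to a common library total) in pericyte-like nuclei against 2831 in smooth muscle-like nuclei. Cardiomyocyte markers summed to 3993 CPM in macrophage-like nuclei. The fibroblast list summed to 9470 CPM in mesothelial-like nuclei, above the 7537 CPM of fibroblast-like nuclei, while the mesothelial list summed to 5605 CPM in mesothelial-like nuclei and at most 46.6 CPM in any other tested class. The valve interstitial list summed to 4713 CPM in fibroblast-like nuclei and 9145 CPM in its own class. The fibroblast list summed to 4443 CPM in valve interstitial-like nuclei. The endothelial list summed to 3804 CPM in lymphatic endothelial-like nuclei and 6527 CPM in its own class. The part of these shared markers in the values below was not tested.

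Levels below are CPM of the UMIs summed over a class in a pool. A share is the percent of nuclei with at least 1 UMI after each nucleus was thinned to 1000 UMIs, and the unthinned share follows it. The 3 pools are the replicates, errors are SD with n = 3, and tests are edgeR quasi-likelihood tests with the pool as a block, adjusted over all genes by Benjamini-Hochberg with a threshold of 0.05. The labels call the pools replicates but do not say that their litters were separate. The p-values therefore measure only how much class differences vary over these 3 pools, and all classes share the estimate of that spread. Each class was compared with the average of the remaining 9. In these contrasts the median log2 fold change over all genes was 0.12 to 0.29 in 9 classes and -1.56 in erythroid-like nuclei, and with the erythroid-like class left out it was -0.14 to 0.00. Levels of different genes are not compared, since no length scale was used.

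Shares in erythroid-like nuclei, which should lack these genes, are given for comparison. Their median depth was 2821 UMIs, against 3292 to 9904 in the other 9 classes. With thinning, 5.65% ± 2.98 of them had a UMI of Nrp1, 2.85% ± 2.48 of Plxna4, 2.67% ± 4.62 of Plxna2, 2.62% ± 2.27 of Sema3c and 1.28% ± 2.22 of Sema3a. Each of these shares rests on few nuclei, and that of Plxna2 on 2 nuclei of pool 1 alone. Sema3d, Sema3e, Plxnd1 and Nrp2 had 0 of 73, which allows a share of up to 4.11%. The limit covers counting error only. The 7 erythroid markers summed to 780700 CPM in this class, so far fewer of the 1000 UMIs were left for other genes than in the other classes, where they summed to at most 1164 CPM. The shares in erythroid-like nuclei are therefore low for a background, and no share above them is read as expression from that alone. For the 4 genes at 0 the limit is no measured background.

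**Figure D1:**
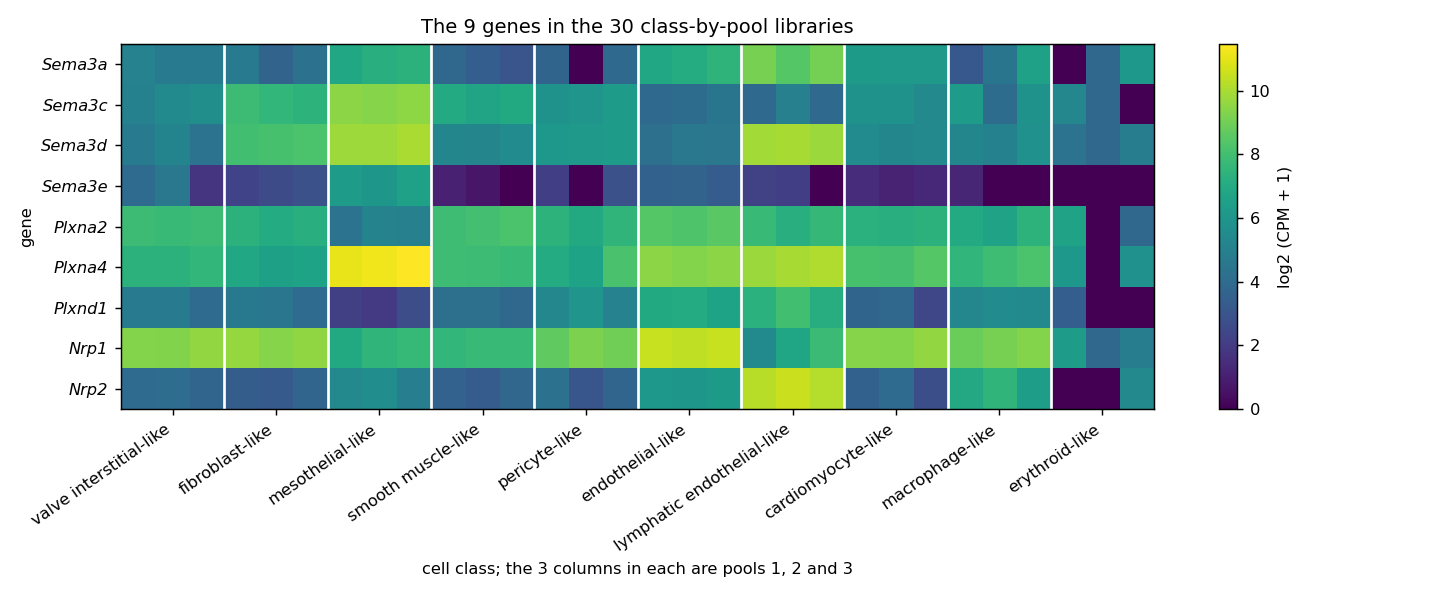
Level of each of the 9 genes (rows) in the 30 libraries of 10 tested classes (3 columns each, for pools 1, 2 and 3), as colour from log2(CPM + 1). Mesothelial-like and lymphatic endothelial-like nuclei hold the highest mean level of 7 of the 9 genes, and endothelial-like nuclei that of Plxna2 and Nrp1.

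Start sites are shown for the 3 ligands with their highest or near-highest level in mesothelial-like nuclei (Sema3c, Sema3d and Sema3e). That of Nrp2, which stood highest in lymphatic endothelial-like nuclei, is shown with them. These 4 genes were chosen because they had the largest fold changes of the 9 between a class and the others. The sequences come from RefSeq on GRCm38.p6, on the plus strand, and end before the first annotated base of the gene. RefSeq promoters were matched by symbol for 8 of the 9 genes. Capitals mark GGGCGG or its reverse complement CCGCCC, the GC box bound by Sp-family factors, which was chosen for display after the sequences were seen. Sema3c at chr5:17574566-17574815, Sema3d at chr5:12382916-12383160, Sema3e at chr5:14025026-14025275 and Nrp2 at chr1:62703067-62703316 read:
Sema3c: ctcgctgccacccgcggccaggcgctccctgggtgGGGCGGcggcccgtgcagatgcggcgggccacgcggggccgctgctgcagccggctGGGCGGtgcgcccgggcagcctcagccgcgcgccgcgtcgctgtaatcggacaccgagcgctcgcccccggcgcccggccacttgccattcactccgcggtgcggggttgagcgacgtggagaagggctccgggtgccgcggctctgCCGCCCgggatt
Sema3d: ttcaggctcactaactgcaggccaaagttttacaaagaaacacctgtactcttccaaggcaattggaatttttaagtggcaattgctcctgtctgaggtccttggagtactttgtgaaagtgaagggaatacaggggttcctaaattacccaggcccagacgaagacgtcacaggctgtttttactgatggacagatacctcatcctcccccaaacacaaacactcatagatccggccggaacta
Sema3e: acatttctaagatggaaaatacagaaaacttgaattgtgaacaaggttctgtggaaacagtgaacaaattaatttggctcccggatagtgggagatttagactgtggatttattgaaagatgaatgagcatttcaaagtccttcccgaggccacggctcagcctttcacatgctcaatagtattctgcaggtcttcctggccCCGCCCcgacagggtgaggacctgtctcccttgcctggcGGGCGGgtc
Nrp2: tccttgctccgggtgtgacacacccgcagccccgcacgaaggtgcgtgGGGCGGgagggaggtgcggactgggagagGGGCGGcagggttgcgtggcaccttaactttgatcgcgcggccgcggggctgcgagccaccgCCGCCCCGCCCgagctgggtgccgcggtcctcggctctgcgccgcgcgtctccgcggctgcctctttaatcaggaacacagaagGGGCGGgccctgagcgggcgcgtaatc

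The windows differed in base composition. GC content was 78.4% for Sema3c and 72.4% for Nrp2, above the upper quartile of 61.2% over all 32851 promoters, and 46.1% for Sema3d and 48.0% for Sema3e, under the median of 52.4%. GGGCGG on either strand, overlapping matches included, was found 5 times for Nrp2, 3 times for Sema3c, 2 times for Sema3e and 0 times for Sema3d, and 32.7% of all promoters hold it. Of the other motifs searched on both strands, CGGAAG is held by 13.6% of promoters, CATTCC by 12.6%, TATAAA by 12.4%, GATAAG by 6.55% and CACGTG by 6.02%, and none of these was in the 4 windows. Sema3c and Sema3d, both above the mean of the other classes in mesothelial-like and fibroblast-like nuclei, thus had windows of unlike composition.

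Sema3c, the ligand known for outflow tract septation, was highest in mesothelial-like nuclei, the cells that cover the outer surface of the heart and great vessels. Its level there was 719.7, 662 and 723 CPM in pools 1, 2 and 3. Fibroblast-like nuclei had 229.8, 191 and 170.1 CPM and smooth muscle-like nuclei 128, 104 and 123 CPM. These 3 classes stood in the same order in every pool and their ranges did not overlap. Against the other classes, Sema3c was higher in mesothelial-like (log2 fold change 3.90, SE 0.13, edgeR adjusted p = 1.4e-24), fibroblast-like (log2 fold change 1.62, SE 0.16, edgeR adjusted p = 3.5e-10) and smooth muscle-like nuclei (log2 fold change 0.99, SE 0.17, edgeR adjusted p = 1.0e-05). Valve interstitial-like nuclei had 31.8, 42.8 and 49.1 CPM and lay under the mean of the others (log2 fold change -0.90, SE 0.22, edgeR adjusted p = 0.0021), a call lost without pool 1 (log2 fold change -0.51, edgeR adjusted p = 0.31, and -0.70 with edgeR adjusted p = 0.033 without the erythroid-like class too). Endothelial-like nuclei were lowest by mean with 14.3, 15.5 and 21.3 CPM (log2 fold change -2.33, SE 0.28, edgeR adjusted p = 8.6e-09). Sema3c was seen in 41.7% ± 1.14 of mesothelial-like nuclei (unthinned 87.7% ± 1.99), 11.7% ± 1.93 of fibroblast-like nuclei (unthinned 25.5% ± 3.53) and 9.399% ± 0.8803 of smooth muscle-like nuclei (unthinned 21.01% ± 3.18). In endothelial-like nuclei the share, 0.82% ± 0.1299 (unthinned 5.08% ± 0.511), was under that of erythroid-like nuclei. Mesothelial-like nuclei were also the deepest, with a median of 9904 UMIs, which the thinned shares remove.

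Sema3d, a ligand studied for endothelial guidance and pulmonary vein patterning, was highest in a lymphatic and a surface-lining class. Lymphatic endothelial-like nuclei had 952, 1015 and 862 CPM and mesothelial-like nuclei 897, 879 and 1032 CPM, and these ranges overlapped. Fibroblast-like nuclei followed with 254, 281 and 300.5 CPM, under both and above every other class in all 3 pools. All 3 classes were above the mean of the others, lymphatic endothelial-like with a log2 fold change of 3.62, SE 0.12, edgeR adjusted p = 5.5e-24, mesothelial-like with a log2 fold change of 3.91, SE 0.10, edgeR adjusted p = 2.5e-28 and fibroblast-like with a log2 fold change of 1.71, SE 0.12, edgeR adjusted p = 4.5e-14. In contrast to the lymphatic class, endothelial-like nuclei held 17.8, 23.3 and 22.03 CPM, and the direct comparison of endothelial-like with lymphatic endothelial-like nuclei gave a log2 fold change of -5.43, SE 0.19, edgeR adjusted p = 1.3e-22. Valve interstitial-like nuclei were near that low level, with 26.3, 35.04 and 19.96 CPM. A UMI of Sema3d was found in 57.2% ± 0.179 of mesothelial-like (unthinned 92.9% ± 0.959), 49.7% ± 6.08 of lymphatic endothelial-like (unthinned 84.4% ± 8.92) and 21.9% ± 0.999 of fibroblast-like nuclei (unthinned 42.7% ± 0.804). The shares were 1.16% ± 0.195 in endothelial-like and 2.24% ± 0.996 in valve interstitial-like nuclei (unthinned 5.65% ± 1.35 and 6.65% ± 2.65). Levels of these 2 classes overlapped with the 19.6, 13.6 and 27.4 CPM of erythroid-like nuclei.

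Sema3e, the Plxnd1 ligand, had 662 UMIs in all analysed nuclei, which limits its precision. Mesothelial-like nuclei had 79.1, 66.96 and 92.9 CPM in pools 1, 2 and 3, above every other class. Valve interstitial-like nuclei had 15, 23.4 and 2.303 CPM from 41, 36 and 3 UMIs, so pool 3 was at the floor of 3 counts while the other two pools were above it. Endothelial-like nuclei had 10.9, 11.4 and 9.03 CPM, within the range of the valve interstitial-like class and above all of the other classes but those 2. Erythroid-like nuclei had 0 UMIs in every pool. With that class in, the cardiomyocyte-like, smooth muscle-like and macrophage-like tests of Sema3e could not be fitted. Fold changes are therefore given with the erythroid-like class left out, an alternative added after seeing the data. Sema3e was then higher in mesothelial-like (log2 fold change 4.88, SE 0.25, edgeR adjusted p = 1.8e-16), valve interstitial-like (log2 fold change 1.86, SE 0.35, edgeR adjusted p = 0.00011) and endothelial-like nuclei (log2 fold change 1.35, SE 0.31, edgeR adjusted p = 0.00091), and lower in cardiomyocyte-like (log2 fold change -1.40, SE 0.56, edgeR adjusted p = 0.033), smooth muscle-like (log2 fold change -2.59, SE 0.73, edgeR adjusted p = 0.0046) and macrophage-like nuclei (log2 fold change -3.20, SE 1.17, edgeR adjusted p = 0.04). The macrophage-like call rests on 1, 0 and 0 UMIs in the 3 pools and was lost without pool 1 (log2 fold change -5.91, edgeR adjusted p = 0.21) or pool 2 (log2 fold change -2.82, edgeR adjusted p = 0.14). Its mean level of 0.441 CPM was 1.24 CPM with doublets kept and 3.09 CPM at clustering resolution 0.5. The cardiomyocyte-like call was lost without pool 2 (log2 fold change -1.20, edgeR adjusted p = 0.11), and without pool 1 the cardiomyocyte-like and smooth muscle-like tests could not be fitted. The share of nuclei with a UMI was 5.07% ± 3.55 in mesothelial-like (unthinned 32.7% ± 1.87), 1.02% ± 0.6198 in valve interstitial-like (unthinned 1.59% ± 1.35) and 0.874% ± 0.676 in endothelial-like nuclei (unthinned 2.65% ± 0.672). Of smooth muscle-like nuclei, 1 of 2955 had a UMI at the same depth.

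Sema3a, best known for repelling growing axons, was highest in lymphatic endothelial-like nuclei. Lymphatic endothelial-like nuclei had 560.2, 349.6 and 539.5 CPM, apart from all others. Mesothelial-like nuclei had 114, 150.2 and 166 CPM and endothelial-like nuclei 115, 137 and 176 CPM, and these 2 ranges overlapped. Cardiomyocyte-like nuclei came next with 74.4, 72.6 and 71.5 CPM. These 4 classes were each above the mean of the others, lymphatic endothelial-like with a log2 fold change of 3.47, SE 0.24, edgeR adjusted p = 1.1e-14, mesothelial-like with a log2 fold change of 1.82, SE 0.22, edgeR adjusted p = 7.9e-09, endothelial-like with a log2 fold change of 1.59, SE 0.19, edgeR adjusted p = 1.7e-08 and cardiomyocyte-like with a log2 fold change of 0.90, SE 0.21, edgeR adjusted p = 0.00047. Smooth muscle-like nuclei, with 13.3, 9.65 and 7.1 CPM, were under the mean (log2 fold change -2.31, SE 0.35, edgeR adjusted p = 1.6e-06). Valve interstitial-like nuclei had 32.9, 24.7 and 26.1 CPM and macrophage-like nuclei 7.94, 21.2 and 92.8 CPM, the latter with pool 3 far above pools 1 and 2. The share was 38.4% ± 4.93 in lymphatic endothelial-like nuclei (unthinned 64.4% ± 2.998) and 6.68% ± 1.19 in endothelial-like nuclei (unthinned 16.99% ± 2.02).

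**Figure D2:**
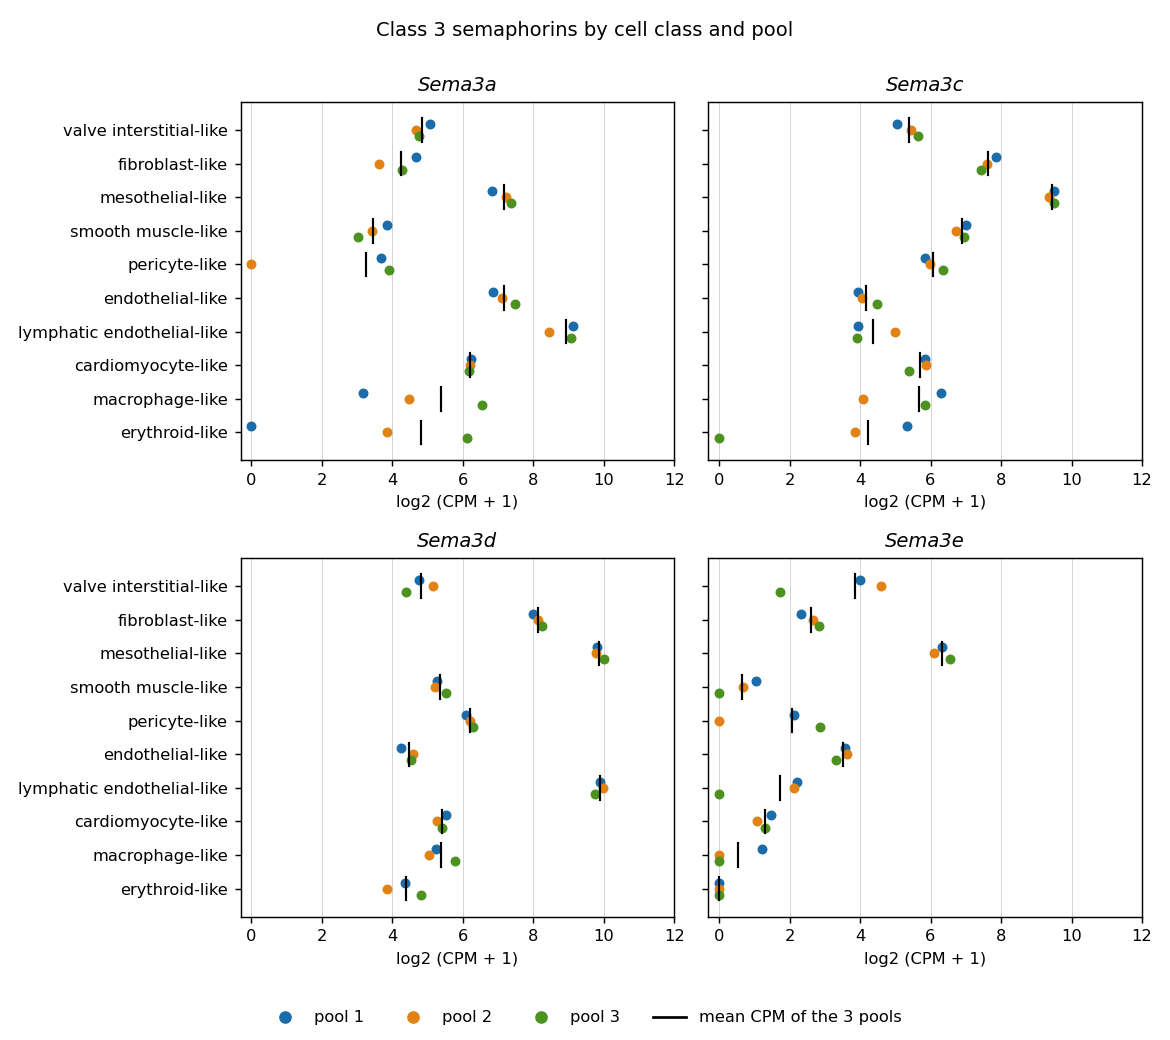
Level of Sema3a, Sema3c, Sema3d and Sema3e as log2(CPM + 1) (horizontal axis) in each of the 10 tested classes (vertical axis), 1 panel per gene, with 1 point per pool and a black bar at the mean CPM of the 3 pools. Sema3c, Sema3d and Sema3e are all high in mesothelial-like nuclei, and Sema3a and Sema3d in lymphatic endothelial-like nuclei.

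Nrp1, the co-receptor of Sema3a and of VEGFA, was widespread and highest in endothelial-like nuclei. Their level was 1441, 1311 and 1453 CPM in pools 1, 2 and 3. Fibroblast-like nuclei had 805, 659.8 and 749 CPM, cardiomyocyte-like nuclei 669, 647 and 783 CPM and valve interstitial-like nuclei 647, 626 and 789 CPM. The last 3 classes overlapped with each other and lay under the endothelial-like class in every pool. Compared with the other classes, Nrp1 was higher in endothelial-like (log2 fold change 2.04, SE 0.14, edgeR adjusted p = 5.3e-15), cardiomyocyte-like (log2 fold change 1.28, SE 0.15, edgeR adjusted p = 3.1e-09), fibroblast-like (log2 fold change 0.99, SE 0.16, edgeR adjusted p = 4.7e-06) and valve interstitial-like nuclei (log2 fold change 0.90, SE 0.16, edgeR adjusted p = 1.9e-05). The last 2 calls were lost with at most 2% mitochondrial UMIs, a cut at which the mesothelial-like, lymphatic endothelial-like and erythroid-like classes were no longer tested. Nrp1 was lower in lymphatic endothelial-like (log2 fold change -2.12, SE 0.26, edgeR adjusted p = 2.8e-08), mesothelial-like (log2 fold change -1.14, SE 0.19, edgeR adjusted p = 5.4e-06) and smooth muscle-like nuclei (log2 fold change -0.84, SE 0.18, edgeR adjusted p = 0.00033). A UMI was seen in 60.99% ± 1.44 of endothelial-like nuclei (unthinned 85.2% ± 1.84), 37.5% ± 4.27 of valve interstitial-like nuclei (unthinned 64.8% ± 2.69) and 16.6% ± 1.16 of smooth muscle-like nuclei (unthinned 39.4% ± 3.16). In lymphatic endothelial-like nuclei it was 2.94% ± 3.26 (unthinned 25.1% ± 9.85), not above that of erythroid-like nuclei once thinned.

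Nrp2, the co-receptor of Sema3c and of VEGFC, had the opposite endothelial pattern. Lymphatic endothelial-like nuclei had 1203, 1490.0 and 1170.1 CPM. Macrophage-like nuclei had 119, 183 and 82.7 CPM and endothelial-like nuclei 68.6, 65.9 and 76.2 CPM. The lymphatic range was apart from both, and every remaining class stayed under the endothelial-like range. Nrp2 was higher in lymphatic endothelial-like (log2 fold change 5.59, SE 0.14, edgeR adjusted p = 3.0e-28), macrophage-like (log2 fold change 1.86, SE 0.20, edgeR adjusted p = 1.1e-09) and endothelial-like nuclei (log2 fold change 1.02, SE 0.16, edgeR adjusted p = 2.3e-06). Valve interstitial-like nuclei had 15, 16.2 and 12.3 CPM and fell under the mean of the others (log2 fold change -1.48, SE 0.29, edgeR adjusted p = 0.00011), as did fibroblast-like (-2.19 on the log2 scale), smooth muscle-like (-1.74), cardiomyocyte-like (-1.66) and pericyte-like nuclei (-1.48). Erythroid-like nuclei had 0, 0 and 3 UMIs of Nrp2, so without pool 3 these 5 tests could not be fitted. With pool 3 and the erythroid-like class both left out, all 5 were still called lower, with log2 fold changes of -2.41 to -1.49 and edgeR adjusted p of 5.7e-09 to 0.0058. Between the endothelial classes, Nrp1 was higher (log2 fold change 3.74, SE 0.28, edgeR adjusted p = 3.5e-13) and Nrp2 lower (log2 fold change -4.11, SE 0.19, edgeR adjusted p = 3.6e-19) in endothelial-like than in lymphatic endothelial-like nuclei. The share with Nrp2 was 63.6% ± 4.11 in lymphatic endothelial-like (unthinned 90.2% ± 3.05), 15.6% ± 2.19 in macrophage-like (unthinned 37.2% ± 5.299) and 4.94% ± 0.29 in endothelial-like nuclei (unthinned 11.8% ± 0.633). Within the endothelial-like class, Nrp2 was far higher in cluster 18 (233 nuclei) than in the other tested clusters (log2 fold change 6.04), as given below.

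Plxna2, a plexin of cardiac neural crest, was measured in every class and was highest in endothelial-like nuclei. Endothelial-like nuclei had 345, 320.5 and 371 CPM, smooth muscle-like nuclei 240.1, 261 and 302 CPM and valve interstitial-like nuclei 229, 215 and 234 CPM. The 3 ranges did not overlap and were above those of the remaining classes. Each was above the mean of the others, endothelial-like with a log2 fold change of 1.27, SE 0.12, edgeR adjusted p = 6.0e-11, smooth muscle-like with a log2 fold change of 1.02, SE 0.13, edgeR adjusted p = 4.4e-08 and valve interstitial-like with a log2 fold change of 0.61, SE 0.14, edgeR adjusted p = 0.00067. Mesothelial-like nuclei, rich in the ligands, had 19.96, 34.4 and 30.95 CPM of this plexin (log2 fold change -2.58, SE 0.21, edgeR adjusted p = 4.1e-13). With doublets kept its mean level there was 43.02 CPM, against 28.4 CPM, and the call was kept. The share was 26.6% ± 0.974 in endothelial-like nuclei (unthinned 64.01% ± 3.82) and 16.9% ± 1.76 in valve interstitial-like nuclei (unthinned 41.96% ± 6.09), against 2.03% ± 1.17 in mesothelial-like nuclei (unthinned 13.4% ± 3.28).

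Plxna4, the plexin that Sema3a signals through with Nrp1, was highest in mesothelial-like nuclei. They had 2149, 2368 and 2837 CPM, above lymphatic endothelial-like nuclei with 858, 1015 and 1100.0 CPM and endothelial-like nuclei with 714, 650.3 and 722 CPM. None of these 3 ranges overlapped. All 3 were above the mean of the others, mesothelial-like with a log2 fold change of 3.44, SE 0.13, edgeR adjusted p = 4.6e-23, lymphatic endothelial-like with a log2 fold change of 1.68, SE 0.17, edgeR adjusted p = 2.0e-10 and endothelial-like with a log2 fold change of 1.21, SE 0.15, edgeR adjusted p = 2.7e-08. Fibroblast-like nuclei had 112, 90.8 and 101 CPM (log2 fold change -1.89, SE 0.21, edgeR adjusted p = 3.4e-09) and valve interstitial-like nuclei 164, 164 and 192 CPM (log2 fold change -1.01, SE 0.19, edgeR adjusted p = 6.5e-05). The share reached 83.6% ± 2.82 of mesothelial-like nuclei (unthinned 97.4% ± 0.391), 58.1% ± 10.1 of lymphatic endothelial-like nuclei (unthinned 85.8% ± 5.13) and 46.7% ± 3.83 of endothelial-like nuclei (unthinned 81.3% ± 4.88).

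Plxnd1, the vascular plexin that receives Sema3e, was highest in the 2 endothelial classes. Lymphatic endothelial-like nuclei had 162, 258 and 140.1 CPM and endothelial-like nuclei 126, 131 and 98.2 CPM. Their ranges did not overlap, and the next class, pericyte-like nuclei, had 39.1, 62.5 and 32.6 CPM. Against the others, Plxnd1 was higher in lymphatic endothelial-like (log2 fold change 3.06, SE 0.19, edgeR adjusted p = 8.9e-16) and endothelial-like nuclei (log2 fold change 2.42, SE 0.12, edgeR adjusted p = 7.9e-19). The direct comparison of endothelial-like with lymphatic endothelial-like nuclei (log2 fold change -0.58, SE 0.18, edgeR adjusted p = 0.02) was lost without pool 1 (log2 fold change -0.72, edgeR adjusted p = 0.073) or pool 2 (log2 fold change -0.32, edgeR adjusted p = 0.52). Mesothelial-like nuclei, which had the most Sema3e, had 3.45, 2.87 and 5.46 CPM of Plxnd1 from 9, 3 and 3 UMIs (log2 fold change -2.97, SE 0.51, edgeR adjusted p = 6.5e-06). With doublets kept the mean level went from 3.93 to 8.62 CPM, and the call was kept. Without pool 1 this test and that of cardiomyocyte-like nuclei could not be fitted, and with the erythroid-like class also left out both were still called lower, by -3.17 and -1.49 on the log2 scale. The share was 15.3% ± 6.804 (unthinned 47.1% ± 8.05) and 11.2% ± 1.74 (unthinned 34.6% ± 7.12) in the endothelial classes, and 2.06% ± 0.662 in valve interstitial-like nuclei (unthinned 7.504% ± 2.94).

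**Figure D3:**
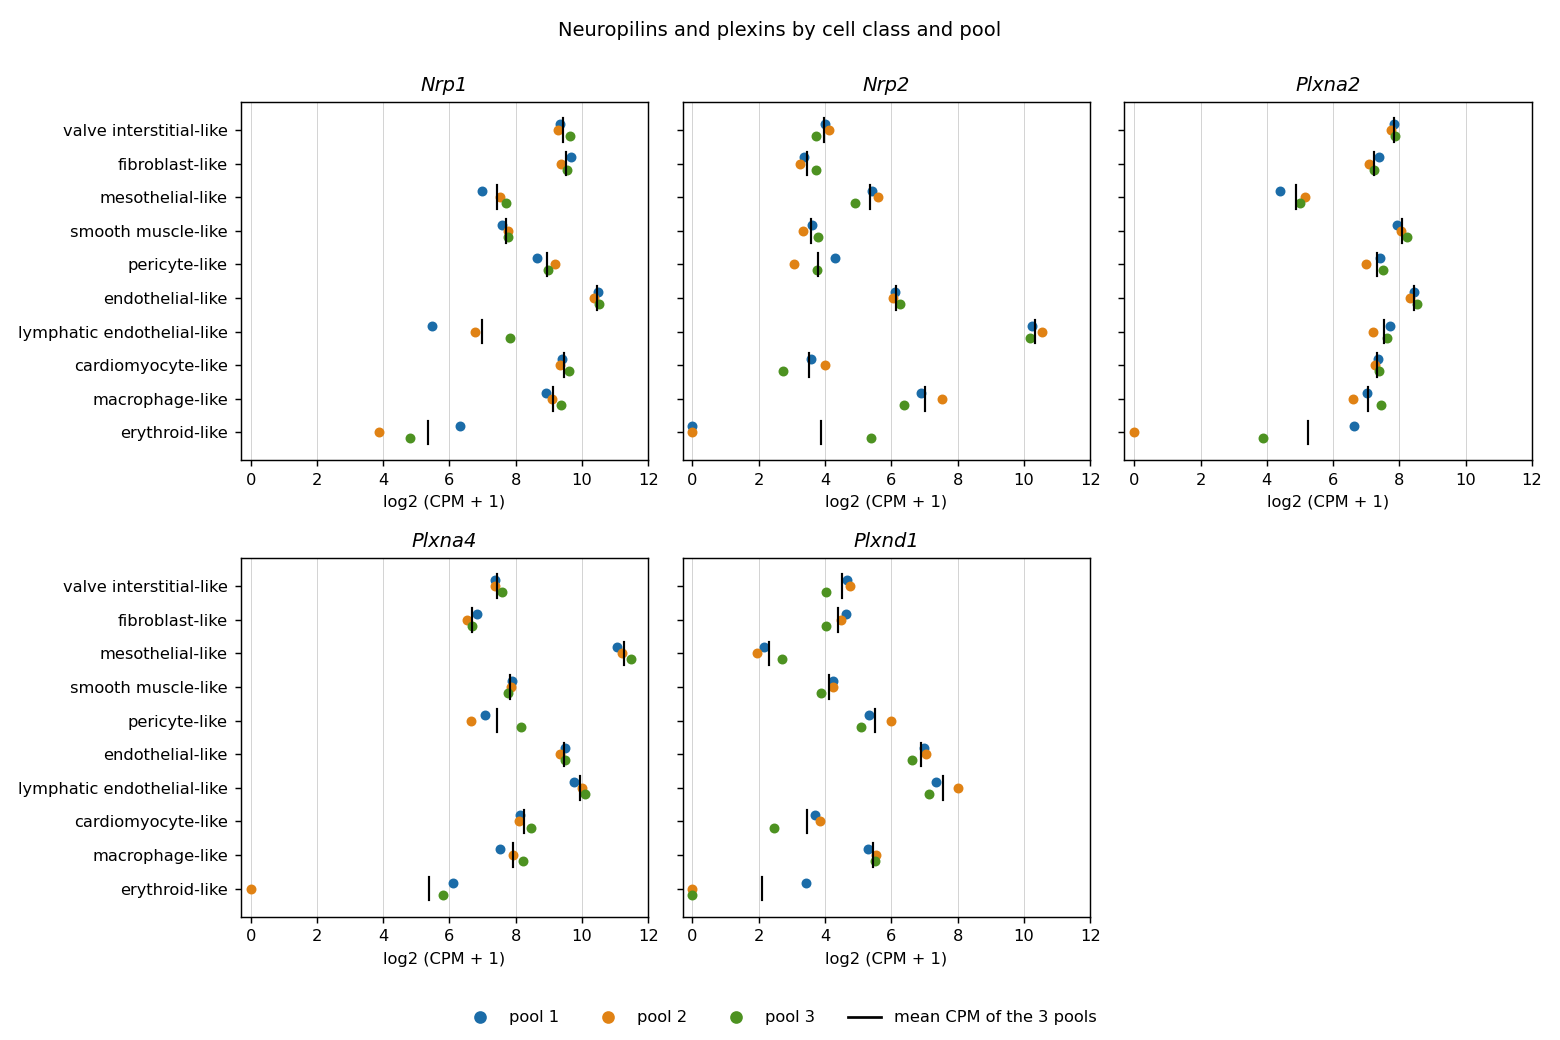
Level of Nrp1, Nrp2, Plxna2, Plxna4 and Plxnd1 as log2(CPM + 1) (horizontal axis) in each of the 10 tested classes (vertical axis), 1 panel per gene, with 1 point per pool and a black bar at the mean CPM of the 3 pools. Nrp1 is high in endothelial-like and low in lymphatic endothelial-like nuclei, Nrp2 the reverse, and Plxna4 is highest in mesothelial-like nuclei.

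Counted by class, endothelial-like nuclei were above the mean of the others for 7 of the 9 genes (all but Sema3c and Sema3d) and under it for those 2, where 22.3% of all genes were called higher, 6.99% lower and 29.3% either way. Mesothelial-like nuclei were higher for 5 (the 4 ligands and Plxna4) and lower for 3 (Nrp1, Plxna2 and Plxnd1), with 33.5% of all genes called higher, 13.5% lower and 46.9% either way. Lymphatic endothelial-like nuclei were higher for 5 (Nrp2, Sema3a, Sema3d, Plxna4, Plxnd1) and lower for 2 (Nrp1 and Sema3c), with 13.6% of all genes called higher, 6.40% lower and 20% either way. The Sema3c call there was lost without pool 1 (log2 fold change -1.58, edgeR adjusted p = 0.067, and -1.80 with edgeR adjusted p = 0.0085 without the erythroid-like class too). Valve interstitial-like nuclei were higher for 3 (Nrp1, Plxna2, Sema3e) and lower for 5 (Sema3a, Sema3c, Sema3d, Plxna4, Nrp2), with 19.3% of all genes called higher, 7.53% lower and 26.9% either way. Of those, the Sema3a call was lost without pool 3 (log2 fold change -0.41, edgeR adjusted p = 0.51, and -0.59 with edgeR adjusted p = 0.082 without the erythroid-like class too). Fibroblast-like nuclei were higher for Sema3c, Sema3d and Nrp1 and lower for Sema3a, Plxna4 and Nrp2 (16.9% of all genes were called higher, 5.34% lower and 22.3% either way). Their Sema3a call was lost without pool 3 (log2 fold change -1.12, edgeR adjusted p = 0.1, and -1.30 with edgeR adjusted p = 0.0012 without the erythroid-like class too).

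Smooth muscle-like nuclei were higher for Sema3c and Plxna2 and lower for 4 genes, Sema3a, Sema3d, Nrp1 and Nrp2 (24.9% of all genes were called higher, 8.20% lower and 33.2% either way). With the erythroid-like class left out, 2 were higher and 7 lower there (21.8% of all genes called higher and 20.5% lower). The 3 gained were Sema3e, Plxna4 (log2 fold change -0.61, SE 0.14, edgeR adjusted p = 0.00067) and Plxnd1 (log2 fold change -0.75, SE 0.15, edgeR adjusted p = 0.00016). The Sema3e test could not be fitted with the erythroid-like class in. Cardiomyocyte-like nuclei were higher for Nrp1, Sema3a and Plxna2 and lower for Nrp2, Plxnd1 and Sema3d (30.8% of all genes were called higher, 13.9% lower and 44.7% either way). The Plxna2 call there was lost without pool 2 (log2 fold change 0.32, edgeR adjusted p = 0.079, and 0.40 with edgeR adjusted p = 0.0054 without the erythroid-like class too) or pool 3 (log2 fold change 0.37, edgeR adjusted p = 0.098, and 0.36 with edgeR adjusted p = 0.021 without the erythroid-like class too).

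Macrophage-like nuclei were higher for Nrp2, Plxnd1 and Nrp1 and lower for Sema3d and Plxna4 (19.3% of all genes were called higher, 5.17% lower and 24.4% either way). The Nrp1 call was lost without pool 2 (log2 fold change 0.47, edgeR adjusted p = 0.13, and 0.24 with edgeR adjusted p = 0.41 without the erythroid-like class too) or pool 3 (log2 fold change 0.44, edgeR adjusted p = 0.16, and 0.21 with edgeR adjusted p = 0.37 without the erythroid-like class too). The Plxnd1 call was lost without pool 1 (log2 fold change 1.56, edgeR adjusted p = 0.052, and 0.62 with edgeR adjusted p = 0.16 without the erythroid-like class too), pool 2 (log2 fold change 0.71, edgeR adjusted p = 0.082, and 0.57 with edgeR adjusted p = 0.11 without the erythroid-like class too) or pool 3 (log2 fold change 0.46, edgeR adjusted p = 0.33, and 0.28 with edgeR adjusted p = 0.44 without the erythroid-like class too). The Plxna4 call was lost without pool 1 (log2 fold change -0.41, edgeR adjusted p = 0.35, and -0.70 with edgeR adjusted p = 0.029 without the erythroid-like class too) or pool 3 (log2 fold change -0.66, edgeR adjusted p = 0.051, and -0.91 with edgeR adjusted p = 3.9e-05 without the erythroid-like class too). Of 17 alternatives, 6 kept the Nrp1 call and 5 of 17 kept the Plxnd1 call, in the class that carried the cardiomyocyte markers given above. With at most 2% mitochondrial UMIs, Nrp1 was called lower in this class (log2 fold change -0.32, edgeR adjusted p = 0.048). With the erythroid-like class left out, 1 gene, Nrp2, was higher and 4 lower in macrophage-like nuclei (16.5% of all genes called higher and 12.6% lower). Nrp1 and Plxnd1 were then not called (log2 fold change 0.23, edgeR adjusted p = 0.24 and log2 fold change 0.48, edgeR adjusted p = 0.065), and Plxna2 (log2 fold change -0.44, SE 0.13, edgeR adjusted p = 0.011) and Sema3e were lower beside Sema3d and Plxna4. In that fit the Plxna2 call was lost without pool 1 (log2 fold change -0.45, edgeR adjusted p = 0.093) or pool 2 (log2 fold change -0.30, edgeR adjusted p = 0.16). Without the pool as a block, this class had 1 higher and 1 lower of the 8 tested (17.4% of all genes higher and 2.59% lower). Pericyte-like nuclei were higher for Plxnd1 and lower for Sema3a, Nrp2 and Plxna4 (13.8% of all genes were called higher, 2.67% lower and 16.4% either way). The Plxnd1 call of this class was lost without pool 2 (log2 fold change 0.63, edgeR adjusted p = 0.18, and 0.47 with edgeR adjusted p = 0.26 without the erythroid-like class too) or pool 3 (log2 fold change 0.82, edgeR adjusted p = 0.086, and 0.65 with edgeR adjusted p = 0.11 without the erythroid-like class too). Its Plxna4 call was lost without pool 1 (log2 fold change -0.75, edgeR adjusted p = 0.091, and -1.04 with edgeR adjusted p = 0.0054 without the erythroid-like class too). With doublets kept, pericyte-like nuclei had 2 higher and 5 lower of the 8 tested (8.35% of all genes higher and 1.29% lower). The 3 gained were Sema3c (log2 fold change -2.17, edgeR adjusted p = 0.0024), Sema3d (log2 fold change -1.60, edgeR adjusted p = 0.00035) and Nrp1 (log2 fold change 0.53, edgeR adjusted p = 0.017). The Sema3c level went from 66.4 to 17.4 CPM and the Sema3d level from 73.03 to 32.8 CPM. The pericyte-like class then held 128 nuclei, against 214 in the main clustering. Erythroid-like nuclei were lower for Nrp1 and Plxna4 (1.71% of all genes were called higher, 7.16% lower and 8.87% either way). Their Nrp1 call was lost without pool 2 (log2 fold change -1.55, edgeR adjusted p = 0.14) or pool 3 (log2 fold change -1.79, edgeR adjusted p = 0.11). Their Plxna4 call was lost without pool 2 (log2 fold change -1.15, edgeR adjusted p = 0.27) or pool 3 (log2 fold change -1.87, edgeR adjusted p = 0.13).

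Leaving out the erythroid-like class also added 1 lower call in each of 4 other classes. These were Sema3e in cardiomyocyte-like nuclei (28.3% of all genes lower), Plxnd1 in fibroblast-like (10.7%) and valve interstitial-like nuclei (14.9%), and Sema3d in pericyte-like nuclei (5.98%). With the erythroid-like class left out, the Plxnd1 call of fibroblast-like nuclei was lost without pool 1 (log2 fold change -0.75, edgeR adjusted p = 0.064) or pool 2 (log2 fold change -0.48, edgeR adjusted p = 0.14). The Plxnd1 call of valve interstitial-like nuclei and the Sema3d call of pericyte-like nuclei were lost without any single pool, with log2 fold changes of -0.35 to -0.49 and -0.48 to -0.52. Of the 16 losses given above of a call against the other classes without a pool, in classes other than the erythroid-like, the call was kept in 8 and stayed lost in 8 once the erythroid-like class was left out too. No call of these 4 classes was lost by leaving out the erythroid-like class alone, and the counts of endothelial-like, mesothelial-like and lymphatic endothelial-like nuclei were the same as before.

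With at most 2% mitochondrial UMIs, where the mesothelial-like, lymphatic endothelial-like and erythroid-like classes were no longer tested, 13 of the 44 class calls that could be tested were lost or turned. Among them were Plxna2 and Sema3a in valve interstitial-like nuclei, Sema3a in fibroblast-like and pericyte-like nuclei, and Sema3d in cardiomyocyte-like and smooth muscle-like nuclei. The Sema3a call of valve interstitial-like nuclei was also lost at both other clustering resolutions, and 10 of 17 alternatives kept it.

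Valve interstitial-like nuclei, which make and remodel the leaflet matrix, were compared directly with their neighbours. Against fibroblast-like nuclei, 3 of the 9 genes were higher and 2 lower (7.53% of all genes were called higher, 7.58% lower and 15.1% either way). Sema3d (log2 fold change -3.30, SE 0.19, edgeR adjusted p = 7.9e-16) and Sema3c (log2 fold change -2.27, SE 0.22, edgeR adjusted p = 4.1e-10) were lower in the valve class, and the pools did not overlap. Sema3e, Plxna4 and Plxna2 were higher by 1.56, 0.79 and 0.62 on the log2 scale, and none of these 3 calls was firm to the choice of pools. Sema3e was lost without pool 1 (log2 fold change 1.24, edgeR adjusted p = 0.38) or pool 2 (log2 fold change 1.18, edgeR adjusted p = 0.22). Plxna4 was lost without pool 1 (log2 fold change 0.93, edgeR adjusted p = 0.069), pool 2 (log2 fold change 0.75, edgeR adjusted p = 0.062) or pool 3 (log2 fold change 0.72, edgeR adjusted p = 0.08). Plxna2 was lost without pool 2 (log2 fold change 0.58, edgeR adjusted p = 0.052) or pool 3 (log2 fold change 0.60, edgeR adjusted p = 0.081). Without the pool as a block, this comparison gave 1 higher and 2 lower of the 9 tested (5.82% of all genes higher and 5.84% lower). Nrp1 was called in neither direction between these classes, with 687 ± 88.98 and 738 ± 73.3 CPM.

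Against smooth muscle-like nuclei, 3 genes were higher and 2 lower in valve interstitial-like nuclei (13.1% of all genes were called higher, 13.4% lower and 26.5% either way). Nrp1 was higher with a log2 fold change of 1.57, SE 0.21, edgeR adjusted p = 1.7e-07, Sema3a by 1.23 and Sema3e by 3.93 on the log2 scale, the last against 8, 1 and 0 UMIs in the smooth muscle-like pools. Sema3c was lower (log2 fold change -1.70, SE 0.22, edgeR adjusted p = 7.0e-08), and Sema3d was lower with a log2 fold change of -0.66, a call lost without pool 1 (log2 fold change -0.69, edgeR adjusted p = 0.11) or pool 3 (log2 fold change -0.44, edgeR adjusted p = 0.27). Against endothelial-like nuclei, 1 gene, Sema3c, was higher (log2 fold change 1.29, SE 0.25, edgeR adjusted p = 5.6e-05) and 6 were lower, led by Plxnd1, Sema3a and Nrp2 (-2.41, -2.28 and -2.26 on the log2 scale), where 17.1% of all genes were called higher, 19.5% lower and 36.5% either way. The other 3 were Plxna4, Nrp1 and Plxna2.

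Between endothelial-like and lymphatic endothelial-like nuclei, 2 genes were higher (Nrp1 and Plxna2) and 4 lower (Sema3d, Nrp2, Sema3a and Plxnd1) in the former, with 8.41% of all genes called higher, 6.46% lower and 14.9% either way. Plxna2 was higher with a log2 fold change of 0.99, SE 0.21, edgeR adjusted p = 0.00059 and Sema3a lower with a log2 fold change of -1.69, SE 0.26, edgeR adjusted p = 6.0e-06.

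Mural and muscle classes also differed. Smooth muscle-like nuclei were higher than fibroblast-like nuclei for Plxna4 and Plxna2 and lower for 4 genes, Sema3d, Sema3e, Nrp1 and Sema3c (12.8% of all genes were called higher, 12.7% lower and 25.6% either way). The Sema3c call of -0.57 was lost without pool 1 (log2 fold change -0.51, edgeR adjusted p = 0.18) or pool 2 (log2 fold change -0.51, edgeR adjusted p = 0.11), and the Sema3e call without pool 1 (log2 fold change -3.84, edgeR adjusted p = 0.06). Against pericyte-like nuclei, Sema3c and Plxna2 were higher and Nrp1, Plxnd1 and Sema3d lower (2.34% of all genes were called higher, 5.53% lower and 7.87% either way). The Sema3c call there was lost without pool 1 (log2 fold change 0.74, edgeR adjusted p = 0.21) and the Sema3d call without pool 1 (log2 fold change -0.77, edgeR adjusted p = 0.19), pool 2 (log2 fold change -0.74, edgeR adjusted p = 0.091) or pool 3 (log2 fold change -0.81, edgeR adjusted p = 0.15), and Sema3d turned to the other direction in 3 alternatives given in the closing section. Against cardiomyocyte-like nuclei, Sema3c, Plxna2 and Plxnd1 were higher and Sema3a, Nrp1 and Plxna4 lower (25% of all genes were called higher, 25.3% lower and 50.3% either way). There Nrp1 differed with a log2 fold change of -1.91, SE 0.21, edgeR adjusted p = 1.2e-09 and Sema3a with a log2 fold change of -2.89, SE 0.31, edgeR adjusted p = 3.6e-10. The Plxna4 call was lost without pool 1 (log2 fold change -0.67, edgeR adjusted p = 0.067) or pool 3 (log2 fold change -0.36, edgeR adjusted p = 0.25) and the Plxnd1 call without pool 1 (log2 fold change 0.65, edgeR adjusted p = 0.092) or pool 3 (log2 fold change 0.41, edgeR adjusted p = 0.096). Without the pool as a block, this comparison gave 1 higher and 2 lower of the 9 tested (21.7% of all genes higher and 21.8% lower).

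The genes also varied between clusters of a class. Clusters were formed without the 9 genes and are given by number with their leading genes. Endothelial-like nuclei split into 7 clusters, of which cluster 25 had too few nuclei to be tested. Cluster 18, led by Pcdh17, Aplnr and Fabp4, had the highest Nrp2 of the 6 tested clusters, with 542, 691 and 504 CPM in pools 1, 2 and 3, against at most 69.7 CPM in any pool of the other 5. Plxnd1 was 334, 324 and 168 CPM there. Of the 9 genes, 4 were higher in cluster 18 and 1, Plxna4, lower than in the other clusters, with 14.5% of all genes called higher, 7.58% lower and 22.0% either way. Nrp2 led with a log2 fold change of 6.04, SE 0.19, edgeR adjusted p = 5.9e-37, followed by Sema3d (log2 fold change 2.26, SE 0.27, edgeR adjusted p = 4.4e-10) and Plxnd1 (log2 fold change 1.45, SE 0.14, edgeR adjusted p = 2.6e-13). The Nrp1 call was lost without pool 2 (log2 fold change 0.40, edgeR adjusted p = 0.097).

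Sema3a marked a different pair of endothelial-like clusters. Cluster 12, led by Kcnc2, Wnt9b and Pthlh and named by 7 endocardial markers, had 361, 452 and 498 CPM, and cluster 16, led by Dlgap2, had 383, 218 and 534 CPM. All of the other 4 clusters were under 65.6 CPM or at it in every pool. Sema3a was higher in cluster 12 (log2 fold change 3.72, SE 0.22, edgeR adjusted p = 6.8e-23) and in cluster 16 (log2 fold change 3.31, SE 0.24, edgeR adjusted p = 4.0e-18) than in the remaining clusters of the class. In cluster 12, 5 genes were higher (Sema3a, Nrp2, Sema3c, Sema3d and Plxnd1) and Plxna2 lower (13.7% of all genes were called higher, 5.21% lower and 18.9% either way). The Plxnd1 call was lost without pool 1 (log2 fold change 0.53, edgeR adjusted p = 0.092) or pool 2 (log2 fold change 0.30, edgeR adjusted p = 0.28), the Sema3d call without pool 1 (log2 fold change 0.82, edgeR adjusted p = 0.18) and the Sema3c call without pool 3 (log2 fold change 1.06, edgeR adjusted p = 0.07). In cluster 16, Sema3a alone of the 9 was higher and 5 genes were lower (8.74% of all genes were called higher, 10.1% lower and 18.9% either way), Nrp1 most firmly, with 295, 273 and 388 CPM (log2 fold change -2.07, SE 0.16, edgeR adjusted p = 7.7e-17). The others were Nrp2, Plxnd1, Plxna2 and Plxna4, of which the Nrp2 call was lost without pool 1 (log2 fold change -2.20, edgeR adjusted p = 0.068) and the Plxna4 call without pool 1 (log2 fold change -0.47, edgeR adjusted p = 0.14) or pool 2 (log2 fold change -0.43, edgeR adjusted p = 0.068).

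Cluster 4, led by Grid1 and Col23a1, had the most Nrp1, 2380.4, 2184 and 2637 CPM (log2 fold change 1.57, SE 0.12, edgeR adjusted p = 1.0e-17). It also had the highest Sema3e of the 6 tested clusters, 31.2, 29.5 and 24.9 CPM (log2 fold change 4.09, SE 0.43, edgeR adjusted p = 1.1e-11). Plxna2 and Plxna4 were higher there and Sema3d, Plxnd1 and Nrp2 lower, so that 4 were higher and 3 lower with 10.5% of all genes called higher, 11.1% lower and 21.6% either way. The Nrp2 call was lost without pool 1 (log2 fold change -1.20, edgeR adjusted p = 0.18). Cluster 7, led by Cytl1 and Gkn3, was higher for Nrp1, Plxna2 and Plxna4 and lower for Sema3a (10.4% of all genes were called higher, 5.60% lower and 16.0% either way), with 434, 477 and 601 CPM of Plxna2 (log2 fold change 0.99, SE 0.11, edgeR adjusted p = 1.1e-10). Cluster 17, led by Sema3g and Gja5, was higher for Plxnd1, with 199, 232 and 131 CPM (log2 fold change 0.83, SE 0.15, edgeR adjusted p = 2.5e-05), and lower for Sema3a, Nrp2 and Nrp1 (8.65% of all genes were called higher, 7.95% lower and 16.6% either way). Its Sema3a level was 3.53, 4.42 and 7.68 CPM, and its Nrp1 call was lost without pool 1 (log2 fold change -0.39, edgeR adjusted p = 0.14) or pool 3 (log2 fold change -0.41, edgeR adjusted p = 0.12).

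**Figure D4:**
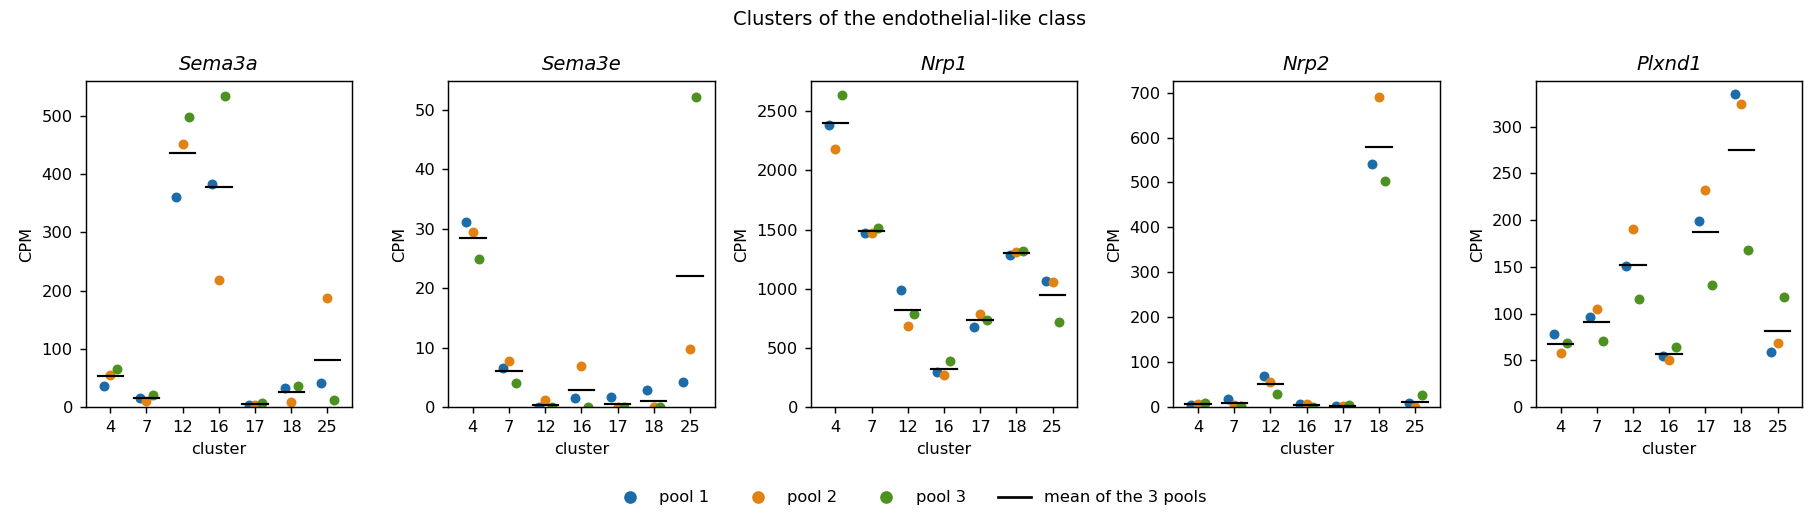
Level of Sema3a, Sema3e, Nrp1, Nrp2 and Plxnd1 in CPM (vertical axes, linear from 0, a scale of its own for each gene) in the 7 endothelial-like clusters (horizontal axis, by number), with 1 point per pool and a black bar at the mean of 3 pools. Cluster 25 had too few nuclei to be tested and varied most between pools for Sema3e, and of the other 6 clusters Nrp2 stands high in cluster 18, Sema3a in clusters 12 and 16, and Sema3e in cluster 4.

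Valve interstitial-like nuclei formed 2 clusters. Cluster 3 (934 nuclei) was led by Rmst and Adamts19, and cluster 9 (506 nuclei) by Abi3bp and Ctnna2. Nrp1 was 786, 761 and 955 CPM in cluster 3 and 304, 278 and 300.3 CPM in cluster 9, with no overlap. The ligands went the other way. Sema3d was 18.01, 12.6 and 10.3 CPM in cluster 3 and 46.8, 92.7 and 48.5 CPM in cluster 9, Sema3a 16.5, 3.604 and 22.6 and 73.4, 78.8 and 36.4 CPM, and Sema3c 18.5, 34.2 and 38.02 and 64.5, 64.9 and 81.9 CPM. Sema3e was 8.75, 2.703 and 0 CPM against 30.4, 76.5 and 9.101 CPM. For each ligand every pool of cluster 9 was above the same pool of cluster 3.

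Relative to cluster 9, 1 of the 9 genes was higher and 7 lower in cluster 3, all but Plxnd1, where 4.45% of all genes were called higher, 4.02% lower and 8.48% either way. Nrp1 was higher with a log2 fold change of 1.51, SE 0.18, edgeR adjusted p = 2.3e-09. Sema3e was lower with a log2 fold change of -2.95, SE 0.49, edgeR adjusted p = 5.5e-06, Sema3a with a log2 fold change of -2.19, SE 0.43, edgeR adjusted p = 0.00011 and Sema3d with a log2 fold change of -2.04, SE 0.33, edgeR adjusted p = 2.6e-06. Plxna2 and Plxna4 were lower with log2 fold changes of -0.51 and -0.64, calls that were lost whichever pool was left out. Plxna2 was lost without pool 1 (log2 fold change -0.34, edgeR adjusted p = 0.51), pool 2 (log2 fold change -0.50, edgeR adjusted p = 0.13) or pool 3 (log2 fold change -0.64, edgeR adjusted p = 0.056). Plxna4 was lost without pool 1 (log2 fold change -0.70, edgeR adjusted p = 0.17), pool 2 (log2 fold change -0.62, edgeR adjusted p = 0.085) or pool 3 (log2 fold change -0.57, edgeR adjusted p = 0.12). Nrp2 was lost without pool 1 (log2 fold change -0.91, edgeR adjusted p = 0.54) and Sema3c without pool 1 (log2 fold change -0.97, edgeR adjusted p = 0.33).

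**Figure D5:**
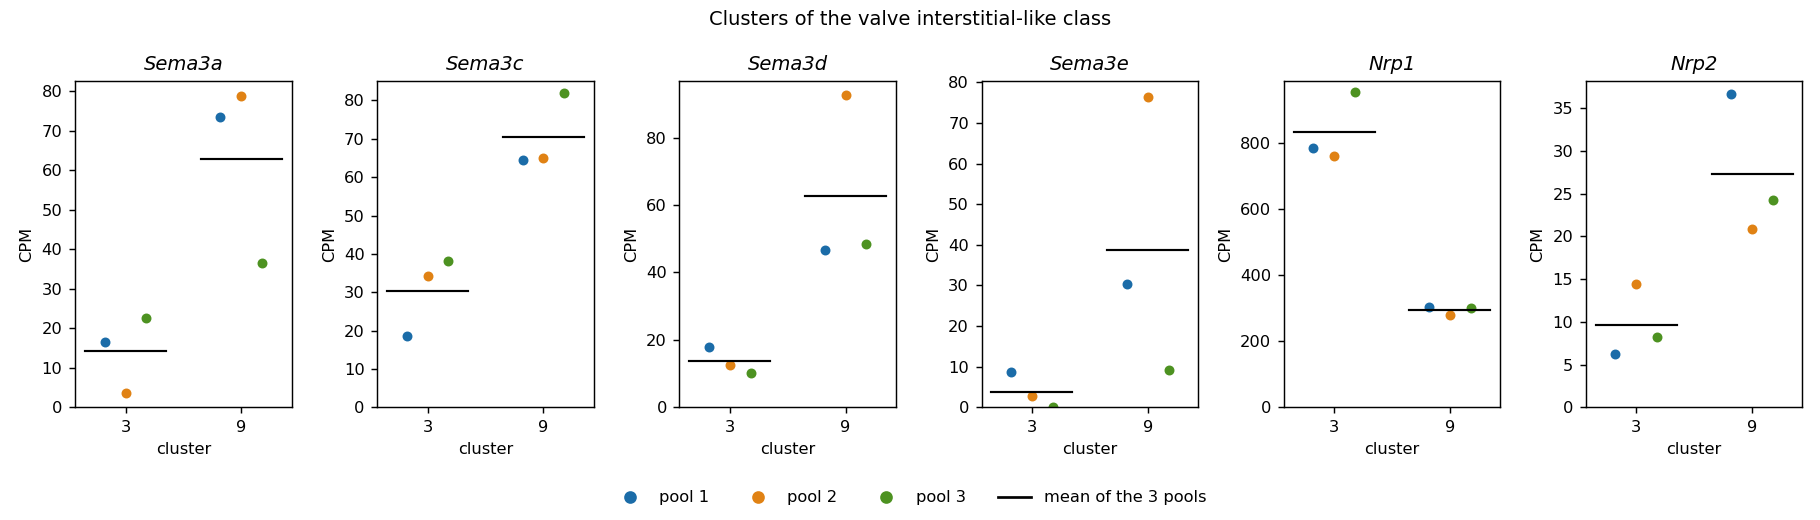
Level of Sema3a, Sema3c, Sema3d, Sema3e, Nrp1 and Nrp2 in CPM (vertical axes, linear from 0, a scale of its own for each gene) in the valve interstitial-like clusters 3 and 9, with 1 point per pool and a black bar at the mean of 3 pools. Nrp1 is higher in cluster 3, and the 4 semaphorins are higher in cluster 9.

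Within fibroblast-like nuclei, cluster 14, led by Tmeff2 and Pi16, had 506, 531 and 426 CPM of Sema3c against 83.7, 88.5 and 92.8 CPM in cluster 5 (log2 fold change 2.51, SE 0.26, edgeR adjusted p = 2.8e-11). Nrp1 was 1175, 1099 and 1217 against 609.8, 527 and 607 CPM (log2 fold change 1.03, SE 0.17, edgeR adjusted p = 9.7e-06). With Sema3a, 3 of the 9 genes were higher in cluster 14 and 0 lower, and 5.53% of all genes were called higher, 3.98% lower and 9.50% either way. By contrast Sema3d, at 281, 325 and 435 and 239.7, 268 and 259.9 CPM, was not called.

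Smooth muscle-like clusters differed in their plexins. Cluster 2, led by Clca3a2 and Pi15, had 372, 427 and 460.2 CPM of Plxna2 against 164, 146 and 150.4 CPM in cluster 1. Plxna4 was 97.7, 112 and 107 CPM in cluster 2 and 306, 297 and 312 CPM in cluster 1. The ranges were apart for both genes, in opposite directions. In cluster 2 Plxna2 was higher (log2 fold change 1.02, SE 0.13, edgeR adjusted p = 1.9e-08) and 2 genes were lower, Plxna4 (log2 fold change -1.48, SE 0.17, edgeR adjusted p = 7.7e-10) and Sema3d, with 5.65% of all genes called higher, 5.47% lower and 11.1% either way. The Sema3d call was lost without pool 1 (log2 fold change -0.47, edgeR adjusted p = 0.58) or pool 3 (log2 fold change -0.81, edgeR adjusted p = 0.084). In cluster 1 Plxna4 was higher and Plxna2 and Nrp1 lower (4.87% of all genes were called higher, 3.97% lower and 8.84% either way). In cluster 10 Sema3d and Plxna4 were higher and Sema3c lower (2.48% of all genes were called higher, 1.56% lower and 4.04% either way), and each of these calls was lost with 2 or 3 of the pools left out in turn, while the fold changes kept their direction. Sema3d was lost without pool 1 (log2 fold change 0.96, edgeR adjusted p = 0.26) or pool 3 (log2 fold change 0.48, edgeR adjusted p = 0.65). Plxna4 was lost without pool 1 (log2 fold change 0.53, edgeR adjusted p = 0.4), pool 2 (log2 fold change 0.44, edgeR adjusted p = 0.27) or pool 3 (log2 fold change 0.64, edgeR adjusted p = 0.052). Sema3c was lost without pool 1 (log2 fold change -1.13, edgeR adjusted p = 0.18) or pool 2 (log2 fold change -0.84, edgeR adjusted p = 0.11).

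Cardiomyocyte-like clusters split the ligands. Cluster 11, led by Erc2, had 238, 295 and 211 CPM of Sema3a (log2 fold change 2.45, SE 0.22, edgeR adjusted p = 3.6e-14), and cluster 20, led by Ryr3 and Tbx5, had 314, 537 and 259.8 CPM of Sema3c (log2 fold change 3.18, SE 0.22, edgeR adjusted p = 4.9e-19). The largest cluster, 0, had 29.8, 33.2 and 26.3 CPM of Sema3a and 17.6, 10.2 and 12.97 CPM of Sema3c. Cluster 11 was higher for 3 genes (Sema3a, Nrp2, Plxna4) and lower for Nrp1 (14.1% of all genes were called higher, 14.1% lower and 28.2% either way). Its Nrp1 level was 202, 173 and 234 CPM, against 893, 816 and 966 CPM in cluster 0. Cluster 20 was higher for 3 genes and lower for 0 (5.78% of all genes were called higher, 3.46% lower and 9.24% either way), with its Sema3a call lost without pool 1 (log2 fold change 0.69, edgeR adjusted p = 0.44) or pool 2 (log2 fold change 0.98, edgeR adjusted p = 0.07) and its Plxna4 call without pool 1 (log2 fold change 0.35, edgeR adjusted p = 0.47) or pool 2 (log2 fold change 0.46, edgeR adjusted p = 0.11). Cluster 0 was higher for Nrp1 and lower for 4, Sema3a, Sema3c, Nrp2 and Plxnd1 (21.9% of all genes were called higher, 18.5% lower and 40.4% either way), of which the Nrp2 call was lost without pool 1 (log2 fold change -1.76, edgeR adjusted p = 0.14) and the Plxnd1 call without pool 1 (log2 fold change -0.49, edgeR adjusted p = 0.49) or pool 3 (log2 fold change -0.62, edgeR adjusted p = 0.17). Cluster 6, with a median of 2141 UMIs, was higher for 4 and lower for 3 (36.0% of all genes were called higher, 24.8% lower and 60.8% either way), and the part of its depth in those calls was not tested. Its Sema3d call was lost without pool 1 (log2 fold change 0.64, edgeR adjusted p = 0.12) or pool 2 (log2 fold change 0.28, edgeR adjusted p = 0.38) and its Sema3e call without pool 1 (log2 fold change 0.92, edgeR adjusted p = 0.53) or pool 3 (log2 fold change 1.70, edgeR adjusted p = 0.073).

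Receptor partners were then counted in the same nuclei, at 1000 UMIs each, beside the product of the single shares. In endothelial-like nuclei 29.6% ± 2.75 had UMIs of both Nrp1 and Plxna4, against a product of 28.5%. In lymphatic endothelial-like nuclei the pair Nrp2 and Plxna4 was seen in 34.5% ± 9.303, against a product of 37.3%. These shares lay within 1 SD of their products, the first above its product in 3 of 3 pools and the second in 1 of 3. In mesothelial-like nuclei Nrp1 and Plxna4 were found together in 14.5% ± 4.52. Within endothelial-like nuclei, Nrp2 and Plxnd1 were found together in 1.15% ± 0.369 against a product of 0.557%, above it in 3 of 3 pools. Nrp2 and Plxna4 were found together in 1.24% ± 0.482 against 2.31%, above it in 0 of 3 pools. The same 2 plexins were respectively higher and lower in cluster 18, where Nrp2 was high. In valve interstitial-like nuclei the commonest pair of those counted was Nrp1 with Plxna2, in 6.202% ± 1.88 of nuclei against a product of 6.39%.

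Class size and level together set where the RNA of each gene lay. Of all UMIs of a gene in analysed nuclei, mesothelial-like nuclei, 2.74% ± 0.424 of nuclei, held 46.5% ± 8.81 of Sema3e, 43.2% ± 12.7 of Sema3d and 36.4% ± 10.6 of Sema3c, the largest mean share of each. The largest mean shares of the other 6 genes lay in endothelial-like nuclei, 21.1% ± 2.55 of nuclei, with 58.03% ± 10.7 of Plxnd1, 40.7% ± 10.1 of Nrp1, 39.7% ± 5.01 of Sema3a, 33.4% ± 7.76 of Plxna2, 31.5% ± 4.71 of Nrp2 and 30.97% ± 4.73 of Plxna4. For Nrp2 the lymphatic endothelial-like nuclei, 0.965% ± 0.3503 of nuclei, held about as much, 30.1% ± 10.4, and more than the endothelial-like nuclei in pool 2 only. For Plxna4 the mesothelial-like nuclei held 28.3% ± 7.42, more than the endothelial-like nuclei in pool 1 only. Valve interstitial-like nuclei, 11.2% ± 1.104 of nuclei, held 11.3% ± 8.696 of Sema3e, 8.51% ± 1.04 of Plxna2 and 7.67% ± 0.268 of Nrp1, and less of each of the other 6. These shares of UMIs also follow the depth of the nuclei of a class. They are compared among the 10 tested classes only. Unnamed nuclei, which are not among them, held 5149242 of the 18313566 analysed UMIs of pool 3.

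The other genes of the pathway were taken from 5 lists of 54 genes in all, of which 48 passed the filter on low counts. In endothelial-like nuclei 21 of the 48 tested (43.8%, against 22.3% of all genes) were higher and 5 (10.4%, against 6.99%) lower, with a median log2 fold change of 0.40 beside 0.24 over all genes. The other class 3 semaphorins gave 2 higher and 0 lower of 3 tested, the semaphorins of other classes 5 higher and 1 lower of 11 tested, the other plexins 1 higher and 1 lower of 5 tested, the other neuropilin ligands and co-receptors 4 higher and 0 lower of 9 tested and the signalling and processing genes 9 higher and 3 lower of 20 tested. The genes named by size of change were Sema3g, a ligand of arterial endothelium (28 ± 4.01 CPM, log2 fold change 5.13, SE 0.35, edgeR adjusted p = 2.7e-14), Flt1, a VEGF receptor (3.84 on the log2 scale), Plxnc1, the receptor of Sema7a (3.53), Sema4d, a ligand of B-type plexins (3.08), and Sema7a itself (2.91).

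In lymphatic endothelial-like nuclei 14 of the 48 tested (29.2%, against 13.6% of all genes) were higher and 4 (8.33%, against 6.40%) lower, with a median log2 fold change of 0.50 beside 0.12 over all genes. Flt4, the VEGFC receptor that pairs with Nrp2, led with 505 ± 139 CPM (log2 fold change 6.10, SE 0.19, edgeR adjusted p = 1.5e-24), followed by Sema6b (5.43 on the log2 scale), the cell adhesion molecule Nrcam (4.67), the VEGF receptor Kdr (4.61) and Sema4d (3.12). In mesothelial-like nuclei 20 of the 48 tested (41.7%, against 33.5% of all genes) were higher and 7 (14.6%, against 13.5%) lower, with a median log2 fold change of 0.38 beside 0.29 over all genes. Dpysl5, a collapsin response mediator of semaphorin signalling, led with 97 ± 7.91 CPM (log2 fold change 7.56, SE 0.28, edgeR adjusted p = 7.1e-21), followed by Sema3b (3.89 on the log2 scale), Sema4a (3.38), Kdr (2.91) and Plxnb2, a receptor of class 4 semaphorins (2.10). Sema3b, another class 3 ligand, was thus called higher in the same class as Sema3c, Sema3d and Sema3e.

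In valve interstitial-like nuclei 16 of the 48 tested (33.3%, against 19.3% of all genes) were higher and 3 (6.25%, against 7.53%) lower, with a median log2 fold change of 0.44 beside 0.22 over all genes. Dpysl4, another collapsin response mediator, led with 46.2 ± 10.1 CPM (log2 fold change 4.77, SE 0.28, edgeR adjusted p = 5.3e-16). Nrcam was higher by 2.91 and Plxna3, a receptor used with Nrp2, by 2.02 on the log2 scale, and Kdr (-1.97) and Flt4 (-1.71) were lower. Neither call was kept when lymphatic endothelial-like nuclei were not among the other classes, at log2 fold change -1.46, edgeR adjusted p = 0.087 for Kdr and log2 fold change -1.03, edgeR adjusted p = 0.082 for Flt4. The semaphorins of other classes gave 3 higher and 0 lower of 11 tested and the neuropilin ligands and co-receptors 4 higher and 2 lower of 9 tested in this class. In fibroblast-like nuclei 15 of the 48 tested (31.2%, against 16.9% of all genes) were higher and 7 (14.6%, against 5.34%) lower, with a median log2 fold change of 0.28 beside 0.22 over all genes, led by Rnd1, a GTPase that acts on plexins (-2.82), and Plxnc1 (2.68). Without pool 1 the count called in fibroblast-like nuclei dropped from 22 to 13, with 11 higher and 2 lower of the 44 tested (13.7% of all genes higher and 1.74% lower).

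In smooth muscle-like nuclei 12 of the 48 tested (25%, against 24.9% of all genes) were higher and 6 (12.5%, against 8.20%) lower, with a median log2 fold change of 0.14 beside 0.26 over all genes, led by Dpysl5 (3.20 on the log2 scale) and Sema5b (3.06). The count called there went from 18 to 29 with at least 2000 UMIs, with 13 higher and 16 lower of the 46 tested (20.8% of all genes higher and 20% lower). At that cut the erythroid-like class was no longer tested. It went to 30 with the erythroid-like class left out, with 13 higher and 17 lower of the 46 tested (21.8% of all genes higher and 20.5% lower). Calls of lower genes thus also rose over all genes at both settings. Both settings lack the erythroid-like class, so the part of depth alone was not tested. In cardiomyocyte-like nuclei 10 of the 48 tested (20.8%, against 30.8% of all genes) were higher and 13 (27.1%, against 13.9%) lower, with a median log2 fold change of -0.17 beside 0.23 over all genes, led by Sema4b (3.16) and Sema6a (-2.76). Vegfa, the growth factor that binds Nrp1, was higher there with a log2 fold change of 2.44, SE 0.12, edgeR adjusted p = 2.0e-19, with 159 ± 32.7 CPM against 46.02 ± 8.83 CPM in endothelial-like nuclei. In pericyte-like nuclei 9 of the 48 tested (18.8%, against 13.8% of all genes) were higher and 0 (0%, against 2.67%) lower, with a median log2 fold change of 0.31 beside 0.28 over all genes, led by Sema7a (4.19) and Sema5b (3.84). In macrophage-like nuclei 6 of the 48 tested (12.5%, against 19.3% of all genes) were higher and 6 (12.5%, against 5.17%) lower, with a median log2 fold change of -0.14 beside 0.27 over all genes, led by Plxnc1 (3.84) and Fes, a kinase bound to plexins (3.67). The count called in macrophage-like nuclei went from 12 to 4 without pool 1, with 4 higher and 0 lower of the 43 tested (15.3% of all genes higher and 1.70% lower). Without pool 2 it was 7, with 5 higher and 2 lower of the 44 tested (13.9% of all genes higher and 2.48% lower). In erythroid-like nuclei 0 of the 48 tested (0%, against 1.71% of all genes) were higher and 3 (6.25%, against 7.16%) lower, with a median log2 fold change of -1.93 beside -1.56 over all genes, with 6 lower without pool 1 (9.99% of all genes lower) and 1 without pool 3 (0.632%).

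The genes whose level was most like that of each of the 9 were found by Pearson's r of log2 CPM over the 30 libraries of 10 classes and 3 pools, among 10218 genes. The libraries of a pool share a preparation and those of a class share its depth, so r is a description. Sema3a was closest to Kdr (r = 0.81), Flvcr2 and Prox1, the last the defining transcription factor of lymphatic endothelium. Sema3c was closest to Gpc3 (0.91), Rarres2 and Smoc2, Sema3d to Prss23 (0.82), Kcnk5 and Prkcz, and Sema3e to Gm40780 (0.88), Angptl7 and Spock2. Plxnd1 was closest to Ets1 (0.93), Prkd2 and Egfl7, the last an endothelial gene. Nrp2 was closest to Sgk1 (0.91), Ptpre and Lbp, and Nrp1 to Airn (0.85), Sdk1 and Gm32643. Plxna2 was closest to Ogt (0.95), Cdc14b and Fam135a, and Plxna4 to F11r (0.91), Lrrc1 and Ppp1r13b. Among the 9 genes themselves, the highest r was 0.69 between Sema3a and Nrp2, followed by 0.66 between Plxna2 and Plxnd1, and the lowest was -0.46 between Sema3d and Nrp1.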

How the data were processed

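RNA was measured in nuclei of 3 pools by the gene expression part of a 10x Multiome assay. The authors deposited raw UMI counts per gene and nucleus, made with Cell Ranger 7.1.0 per the file headers and aligned to GRCm39 per the submitters' processing notes, which also list version 7.0.1. The annotation, and whether intronic reads were counted, are not given in the sources used here.

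Nuclei with at least 1000 UMIs and at most 5% UMIs from 13 mitochondrial genes were kept (14073 of 21140). Scrublet's own threshold marked almost no nuclei, so the highest scores were removed at 0.8% per 1000 deposited nuclei (891). The rest were clustered without the 9 genes, their pathway or mitochondrial genes (scanpy 1.11.5, 2000 variable genes, 30 components, leidenalg 0.10.2, resolution 1). A cluster was named from marker lists when at least 3 markers were in at least 10% of nuclei and at least 2 times higher than elsewhere. UMIs were summed per pool and class or cluster with at least 20 nuclei in every pool. These sums were tested with edgeR 4.0.16 (TMM, quasi-likelihood) in R 4.3.3, with the pool as a block because classes of the same pool come from the same animals. p-values were adjusted over 13724 genes for classes and 12952 for clusters. For up to 1306 genes in a class contrast and 243 in a cluster contrast, a class or cluster without UMIs left the test unfitted, and they count as not called. Fold changes are log2 from that fit. On simulated data for valve interstitial-like nuclei, the fit found 74.5% of 200 genes given a 2-fold change and 93.5% of 200 given a 4-fold change, and for lymphatic endothelial-like nuclei 32.0% and 68.5%. Alternatives are listed in the closing section.

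Each of the 9 genes was named. Of the other pathway genes, up to 5 per class with the largest called change, the same way in every pool, could be named. For genes of like pattern, the 3 with the highest r were named among genes with a mean of at least 10 CPM. The 9 genes and the lists were chosen with earlier results of these data known.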

Additional observations from a re-analysis of the deposited data

Results flagged for a closer look

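Melanocyte-like nuclei (68 in all, with 35, 18 and 15 in pools 1, 2 and 3) were too few for the tests, but 6 of the 9 genes had more than 3 UMIs there in every pool. Mean levels were 387.4 CPM for Nrp1, 241.3 CPM for Sema3c, 158.4 CPM for Plxna4, 126.8 CPM for Plxna2, 109.2 CPM for Plxnd1 and 89.36 CPM for Nrp2. Nrp1 was 263, 348 and 551 CPM in pools 1, 2 and 3, and Sema3c was 204, 264 and 256 CPM. Nrp2 was lowest in pool 1, with 24.9, 125 and 118 CPM. These are values from nuclei outside the comparisons, picked out because the counts exceeded the floor of 3 UMIs.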

How the results depend on the processing

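Of 61 calls of the 9 genes in classes against the other classes, 40 between pairs of classes and 71 in clusters, DESeq2 with its size factors kept 60, 39 and 66, at least 2000 UMIs kept 58 of the 59 that could be tested, 39 and 69, and no filter on low counts kept 59, 38 and 67. At most 2% mitochondrial UMIs kept 31 of 44, 30 of 34 and 53 of 64. Keeping doublets kept 58 class calls and 39 pair calls, resolution 0.5 kept 56 of 59 and 39, and resolution 2 kept 57 of 59 and 37. Without the lymphatic endothelial-like class 49 of 54 and all 34 pair calls that could be tested were kept, and without the erythroid-like class 57 of 59 and 40. Leaving out a pool kept 47 to 55 of the 56 to 61 class calls that could be tested, 30 to 34 pair calls and 51 to 62 cluster calls. Left-out pools and clusters with few nuclei leave fewer counts, and tests of Sema3e against classes with 0 UMIs could often not be fitted. Without cluster 6 of the cardiomyocyte-like class, which was shallow, all 61 class calls and all 40 pair calls were kept, an alternative added after seeing the data, as were those without the erythroid-like class and all on the other pathway genes. Without thinning, 85 of 90 shares of nuclei moved by more than the spread between pools, and both shares are given. Thinned shares moved by more than that spread for 7 of 90 with doublets kept and 6 of 90 at either other resolution, and levels for 12 of 90, 10 of 90 at resolution 0.5 and 8 of 90 at resolution 2, against 2 of 90 without cluster 6 and 0 with any pool left out. Of these levels, 8, 5, 4 and 1 moved by more than 1.5 times. In pericyte-like nuclei Sema3c (66.4 CPM) was 17.4, 17.3 and 28.8 CPM and Sema3d (73.0 CPM) was 32.8, 34.2 and 30.7 CPM with doublets kept and at resolutions 0.5 and 2. The pericyte-like class held 128, 126 and 139 nuclei in these alternatives, against 214 in the main clustering. With doublets kept, Plxnd1 was also 8.62 CPM in mesothelial-like (3.93), 67.4 in pericyte-like (44.7) and 15.8 in erythroid-like nuclei (3.26), Plxna2 43.02 in mesothelial-like (28.4), Nrp2 5.05 in pericyte-like (12.8) and Sema3e 1.24 in macrophage-like nuclei (0.441). At resolution 0.5, Nrp2 was 4.95 and Sema3a 0 in pericyte-like nuclei (12.8 and 8.62) and Sema3e 3.09 in macrophage-like nuclei. At resolution 2, Sema3a was 0 in pericyte-like and Sema3e 1.48 in smooth muscle-like nuclei (0.564). Without cluster 6, Sema3e was 0.88 in cardiomyocyte-like nuclei (1.46).

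The pool was a block because classes of a pool come from the same animals. Without the replicate block, 56 class calls, 31 pair calls and 64 cluster calls were kept, and the genes called numbered 2 in macrophage-like nuclei (5 with the block), 3 in valve interstitial-like against fibroblast-like nuclei (5), 3 in smooth muscle-like against cardiomyocyte-like nuclei (6) and 1 in smooth muscle-like cluster 10 (3). Of the other pathway genes, 5 were called in erythroid-like nuclei without the block (3 with it). For cluster 10 and for erythroid-like nuclei the share of all genes called without the block is not shown. The block changed no other count by more than 1.5 times.

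Sema3d in smooth muscle-like against pericyte-like nuclei turned to 0.57 (log2) with doublets kept, 0.66 at resolution 0.5 and 0.84 at resolution 2. With at most 2% mitochondrial UMIs, Sema3d in cardiomyocyte-like nuclei was 0.011 (edgeR adjusted p = 0.94). Nrp1 in macrophage-like nuclei was -0.32 (edgeR adjusted p = 0.048), so it was called lower there and not higher. The cause was not tested. At that limit cardiomyocyte-like cluster 20 had 1 gene called, smooth muscle-like cluster 10 had 1 and valve interstitial-like cluster 3 had 5.

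Macrophage-like nuclei had 3 genes called with no filter on low counts, with doublets kept, at resolution 0.5, and without any single pool. Pericyte-like nuclei had 7 with doublets kept and 2 without pool 3. Erythroid-like nuclei had 1 with DESeq2 and 1 without the lymphatic endothelial-like class, and 0 without pool 2 or pool 3. Over left-out pools, valve interstitial-like against fibroblast-like nuclei had 2 to 3 called, smooth muscle-like against pericyte-like nuclei as few as 3, cardiomyocyte-like cluster 0 as few as 3, cluster 20 as few as 1, smooth muscle-like cluster 10 0 to 1 and valve interstitial-like cluster 3 as few as 4. With a pool and the erythroid-like class both left out, macrophage-like nuclei and smooth muscle-like against pericyte-like nuclei each had as few as 3.

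Of the other pathway genes, erythroid-like nuclei had 1 called with DESeq2, 5 at resolution 0.5 and 1 to 6 with a pool left out. Macrophage-like nuclei had 7 at resolution 0.5 and 4 to 7 without pool 1 or pool 2, and fibroblast-like nuclei had 13 to 15 with a pool left out. Smooth muscle-like nuclei had 29 with at least 2000 UMIs, a cut that also drops the erythroid-like class, and 30 without the erythroid-like class. With a pool and the erythroid-like class both left out, fibroblast-like nuclei had 13, pericyte-like nuclei 5, valve interstitial-like nuclei 12, macrophage-like nuclei 19 and smooth muscle-like nuclei 28. Except where given earlier, the share of all genes called at these settings is not shown. The counts are therefore not read as changes of these genes alone.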

Other observations

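Adipocyte-like nuclei (44, 10 and 1 in pools 1, 2 and 3) also carried neuropilin and plexin RNA. Nrp2 had 74, 27 and 1 UMIs in the 3 pools, or 287 and 396 CPM in pools 1 and 2. Plxna2 was 283 and 220 CPM in those pools. Pool 3 had 1 such nucleus, so its value is not given as a level.

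The 714 unnamed nuclei fell into cluster 8 (555 nuclei), led by the cell division genes Neil3, Diaph3 and Top2a, and cluster 21 (159 nuclei), led by the potassium channel genes Kcnh7 and Kcnj3. Together they had Nrp1 at 281, 552 and 700.5 CPM in pools 1, 2 and 3, and Sema3c at 96.9, 76.0 and 83.7 CPM. Sema3d was 65.7, 81.9 and 86.8 CPM. Sema3a was 10.9, 11.7 and 64.3 CPM, with pool 3 far above the other two. Cluster 8 had 295, 120 and 140 nuclei in pools 1, 2 and 3, and cluster 21 had 9, 16 and 134. Their median depths were 4845 and 14327 UMIs. These joint levels therefore mix unlike clusters in proportions that differ by pool, and the part of that mix was not tested.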
